A study of Rattus norvegicus with 9 samples.

Results

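miR-486, miR-451 and miR-144 are 3 miRNAs that red blood cells hold in large amounts, and their levels and sequence forms were followed across the wall of the rat left ventricle. Members were the annotated small RNA sequences whose database entry name was mir-486 in any species, or mir-451 or mir-144 in rat, with every match class and both arms of each hairpin. They made up 1517 of the 46358 annotated sequences and 3 of the 1225 entry names. Hearts came from 3 male Sprague-Dawley rats aged 8 months (hearts 6, 7 and 8), with no treatment or genetic change named, and 1 block of the left ventricular free wall per heart was cut into epicardium, midmyocardium and endocardium, about 1 mm from each surface for the outer layers. Each layer of each heart gave 1 small RNA library, so there were 9 libraries in all, 3 per layer, and the 3 libraries of a heart shared 1 animal.

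A miRNA is cut from a hairpin precursor, and the bases at positions 2 to 8 from its 5′ end, the seed, do most of the work of pairing with target mRNAs. The genes of miR-144 and miR-451 lie side by side, are transcribed together and are switched on by GATA1 as red cells mature. miR-451 is unusual in that its hairpin is cleaved by Argonaute 2 instead of Dicer, and its 3′ end is then trimmed back from the loop. miR-486 lies within the gene of ankyrin-1, a membrane skeleton protein, and is made both in the red cell lineage and in heart and skeletal muscle. Because all these miRNAs are carried in blood, the comparison asked whether their levels moved together from library to library.

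In the RefSeq annotation of the GRCr8 rat genome, the Mir144 hairpin was at chr10:63459397-63459479 and the Mir451a hairpin at chr10:63459569-63459640, both on the plus strand. The hairpins were 89 nucleotides (nts) apart, and no other gene of the annotation overlapped the interval that holds them. They are shown because the 3′ ends described further on are read against them, with the mature arms in capitals:
Mir144: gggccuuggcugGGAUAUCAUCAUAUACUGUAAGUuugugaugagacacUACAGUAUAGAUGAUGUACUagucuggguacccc
Mir451a: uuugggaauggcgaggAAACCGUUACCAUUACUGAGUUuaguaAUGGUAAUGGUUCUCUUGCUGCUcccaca

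The mature arms follow with the seed in capitals. Those of miR-144 and miR-451 are from RefSeq, and those of miR-486 are the exact mature 5p sequence and the most abundant 3p sequence of the deposited reads, written as DNA:
miR-144-5p: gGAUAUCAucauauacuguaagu
miR-144-3p: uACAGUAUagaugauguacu
miR-451-5p: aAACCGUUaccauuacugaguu
miR-451-3p: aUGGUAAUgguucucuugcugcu
miR-486-5p: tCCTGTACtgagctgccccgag
miR-486-3p: cGGGGCAGctcagtacaggat

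No pair of these arms had the same seed. The database release used for annotation gave no rat entry name to miR-486 reads, and 96.7% of them were filed under the cattle entry, 2.77% under macaque, 0.356% under mouse, 0.198% under horse and 0.0169% under human. The other 2 members were filed under rat entries.

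Annotated reads ranged from 283991 in the midmyocardium of heart 6 to 1428025 in the endocardium of heart 7, so that 3 reads, the upper limit allowed by a count of 0, corresponded to 2.10 to 10.6 RPM, a unit that scales the reads of a sequence to a fixed total of annotated reads in each library. All 25 marker miRNAs listed for cardiomyocytes, endothelium, smooth muscle, fibroblasts, white cells with platelets and red cells were detected. The 6 cardiomyocyte miRNAs together reached 53981 to 142202 RPM.

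The members differed in level by more than 3 orders of magnitude. miR-486-5p held 1128798 reads and ranked between 1 and 3 of the 1511 read groups in every library. A group held the reads of an entry name, with * arms apart and rat entries apart from other species. The members were grouped by arm. miR-451-5p held 4946 reads, with a mean of 670 RPM ± 190 (SD, n = 9), and ranked 74 by its mean. miR-144-3p averaged 56.1 RPM ± 34.1 and miR-144-5p 43.9 RPM ± 23.3 (SD, n = 9), at ranks 183 and 204. RPM is not corrected for how well a sequence ligates or amplifies, so these levels compare reads and not molecules. The other arm of the miR-451 hairpin, miR-451-3p, was nearly absent, with 11 reads in all and 0 reads in 5 of the 9 libraries.

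**Figure D1:**
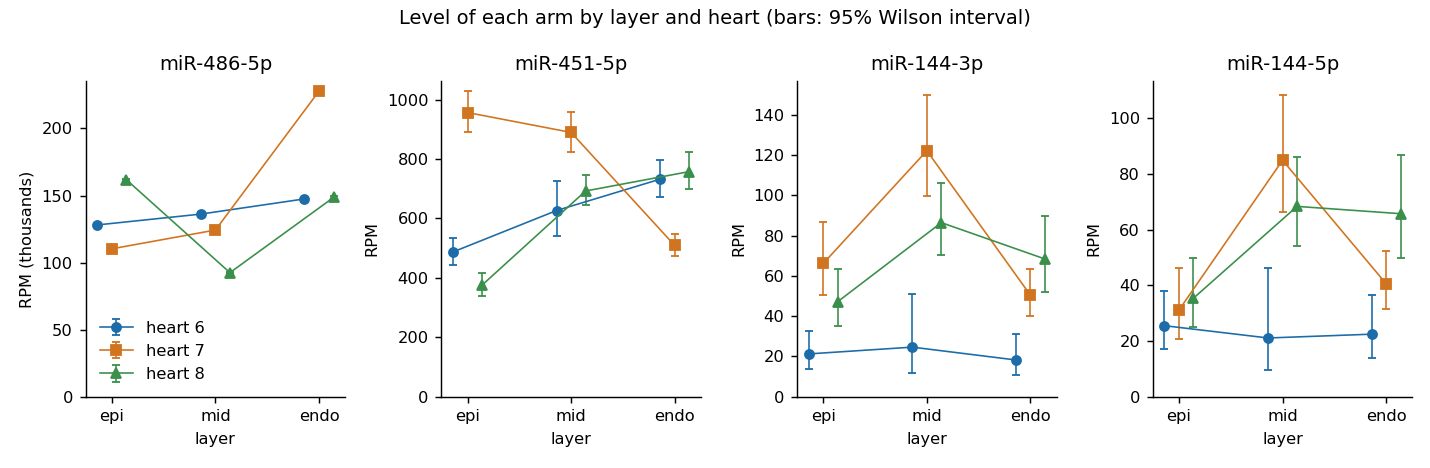
Level in RPM (y axis, linear, scaled down in the miR-486-5p panel) of 4 arms in the epicardium, midmyocardium and endocardium (x axis). Points are single libraries joined within a heart, and bars are 95% Wilson intervals for counting error. Heart 6 lies lowest for both miR-144 arms, whereas the lines of miR-486-5p and miR-451-5p cross between hearts.

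In heart 6, miR-486-5p was at 128064 RPM in the epicardium, 136149 in the midmyocardium and 147468 in the endocardium. In heart 7 the same layers held 110271, 124265 and 227788 RPM. In heart 8 they held 161806, 92501 and 148538 RPM. The endocardium of heart 7 was the highest of the libraries and the midmyocardium of heart 8 the lowest, 2.46-fold apart. The former was also the most deeply sequenced, and the part of depth was not tested. The lowest endocardium exceeded the highest midmyocardium, and such separation of these layers, in either direction, was found in 39 of 357 miRNAs tested (10.9%). The endocardium exceeded the midmyocardium in 3 of 3 hearts, and 30% of the 357 miRNAs kept 1 direction in all hearts, so that neither was rare.

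miR-451-5p had another pattern. Heart 6 gave 487 RPM in the epicardium, 627 in the midmyocardium and 732 in the endocardium. Heart 7 gave 956, 890 and 509 RPM in that order, and heart 8 gave 376, 693 and 758 RPM. The level therefore increased from the outer to the inner layer in hearts 6 and 8 and decreased in heart 7, and the ranges of all layers overlapped.

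For miR-144-3p, which pairs with targets through a seed unlike that of miR-451, heart 6 held 21.3 RPM in the epicardium, 24.6 in the midmyocardium and 18.3 in the endocardium. Heart 7 held 66.2, 122 and 50.4 RPM, and heart 8 held 47.2, 86.4 and 68.4 RPM. All libraries of heart 6 lay below all those of hearts 7 and 8, and the midmyocardium was the highest layer within each heart. Between midmyocardium and epicardium 25.8% of 353 miRNAs kept 1 direction in all hearts, and between endocardium and midmyocardium 30% of 357 did. The counts behind heart 6 were 20, 7 and 13 reads. Its epicardium had 939580 annotated reads, more than the 770583 of the epicardium of heart 7. The 95% Wilson interval of its midmyocardium, 11.9 to 50.9 RPM, overlapped that of the endocardium of heart 7, 40.0 to 63.5 RPM.

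The other arm of the same hairpin, miR-144-5p, gave 25.5, 21.1 and 22.5 RPM in the 3 layers of heart 6, 31.1, 84.97 and 40.6 RPM in heart 7, and 35.4, 68.4 and 65.8 RPM in heart 8, again from epicardium to endocardium. Heart 6 was below the other hearts in every library of this arm too. The 3p arm of miR-486 varied least. It was at 541 to 623 RPM in the epicardium, 451.2 to 485.9 in the midmyocardium and 467 to 514 in the endocardium, so that the epicardium did not overlap with either other layer. Such separation from the epicardium was found in 9.35% of 353 miRNAs for the midmyocardium and in 7.58% of 356 for the endocardium, and 1 direction in all hearts in 25.8% and 23.3%.

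Layers were compared first, 2 at a time, with limma on log2(RPM + 1) without a heart term and with Benjamini-Hochberg adjustment. Between endocardium and epicardium 0 of 356 miRNAs passed an adjusted p of 0.05 (0%), and 13 (3.65%) had an unadjusted p under 0.05, none of them a member. miR-486-5p differed by 0.38 on the log2 scale (SE 0.32, adjusted p = 0.999), from 133380 RPM ± 26176 in the epicardium to 174598 ± 46067 in the endocardium (SD, n = 3). miR-451-5p differed by 0.23 (SE 0.41) and miR-144-3p by -0.02 (SE 0.58). Each of these differences was smaller than, or close to, its own standard error.

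Against the midmyocardium the members went in unlike directions, and none passed the test. For endocardium minus midmyocardium, the limma log2 difference was 0.56 (SE 0.29, adjusted p = 0.794) for miR-486-5p and -0.67 (SE 0.71, adjusted p = 0.834) for miR-144-3p. miR-451-5p stood at -0.15 (SE 0.28). For midmyocardium minus epicardium the values were -0.18 (SE 0.29) for miR-486-5p, 0.38 (SE 0.39) for miR-451-5p and 0.65 (SE 0.66) for miR-144-3p. In these comparisons 0 of 357 and 0 of 353 miRNAs passed (0% in each), and 14 in each had an unadjusted p under 0.05 (3.92% and 3.97%). DESeq2 called 1 miRNA in the second of them, which was not a member, and edgeR's quasi-likelihood test without a heart block called 0 in all layer comparisons. These fits leave the pairing of layers within hearts aside. With heart as a block in limma, miR-144-3p had an SE of 0.29 in both comparisons with the midmyocardium. For endocardium minus midmyocardium its limma p was then 0.075 unadjusted and 0.679 adjusted. For midmyocardium minus epicardium it was 0.076 and 0.895. The block SE was 0.26 and 0.32 for miR-486-5p and 0.30 and 0.31 for miR-451-5p, in that order. The 3 layer comparisons share libraries, so they are not independent.

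Hearts were then compared in 1 fit with layer as a covariate, which compares these 3 animals and no treatment. By limma, 0 of 366 miRNAs passed after adjustment (0%), and 37 (10.1%) had an unadjusted p under 0.05. miR-144-3p had the second smallest p of all, with an unadjusted limma p of 0.00097 and an adjusted p of 0.127. Its mean was 21.4 RPM ± 3.19 in heart 6, 79.6 ± 37.7 in heart 7 and 67.4 ± 19.6 in heart 8 (SD, n = 3 layers), 3.72 and 3.15 times as high in hearts 7 and 8 as in heart 6. On the log2 scale heart 7 exceeded heart 6 by 1.76 and heart 8 exceeded it by 1.58, each with an SE of 0.30. The call depended on the test. With edgeR's quasi-likelihood test the adjusted p was 0.0336, with DESeq2 it was 0.00489, and with a pseudocount of 10 in limma it was 0.0238, whereas over all other settings it ran from 0.0709 to 0.576.

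miR-144-5p moved with its partner arm but did not pass under any setting, with means of 23.1 RPM in heart 6, 52.2 in heart 7 and 56.5 in heart 8 (limma unadjusted p = 0.027, adjusted p = 0.387). miR-451-5p, from the neighbouring hairpin, had means of 616, 785 and 609 RPM in hearts 6, 7 and 8 (limma adjusted p = 0.884). miR-486-5p had means of 137227, 154108 and 134282 RPM (limma adjusted p = 0.962). Both miR-144 arms were below hearts 7 and 8 in all libraries of heart 6, a pattern found in 19 of the 366 miRNAs tested (5.19%), and neither miR-451-5p nor miR-486-5p showed it. For both arms some intervals for counting error overlapped between heart 6 and the other hearts. In these bulk samples fewer cells of a type and less RNA per cell cannot be told apart.

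The 7 further miRNAs listed for red cells did not follow miR-144. By limma 0 of 7 passed in each of the layer comparisons and in the comparison of hearts. miR-16, a general growth-restraining miRNA abundant in blood, was above both other hearts in every library of heart 6, with means of 5950 RPM in heart 6, 3196 in heart 7 and 3062 in heart 8 (limma adjusted p = 0.275), the reverse of miR-144. Such a position was taken by 13 of 366 miRNAs (3.55%). For miR-92a, the most abundant of the list, the heart means were 10872, 11152 and 8867 RPM. miR-25 had 1312, 1657 and 1395 RPM, miR-93 had 336, 303 and 264 RPM, and miR-185 had 50.9, 46.0 and 54.8 RPM. miR-15b had 159, 95.01 and 96.96 RPM and miR-363 had 16.6, 14.4 and 15.9 RPM. In none of these 6 did heart 6 lie wholly above or below the other hearts. Summed over the list, the heart means were 18696, 16463 and 13756 RPM. The 5 white cell and platelet miRNAs summed to 12433, 11509 and 8545 RPM, in the same order of hearts. Most of the red-cell sum came from miR-92a and miR-16, with means of 10297 and 4069 RPM over all libraries. Most of the other sum came from miR-150, with 9113 RPM. Between endocardium and epicardium the median log2 difference of the red-cell list was 0.16, beside 0.0016 over all 356 miRNAs. The medians of the other lists ran from -0.065 for cardiomyocytes to 0.27 for smooth muscle, and 0 of the 7 red-cell miRNAs had an unadjusted limma p under 0.05. For the red-cell list the median was 0.050 beside 0.020 for midmyocardium minus epicardium and -0.015 beside -0.015 for endocardium minus midmyocardium.

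**Figure D2:**
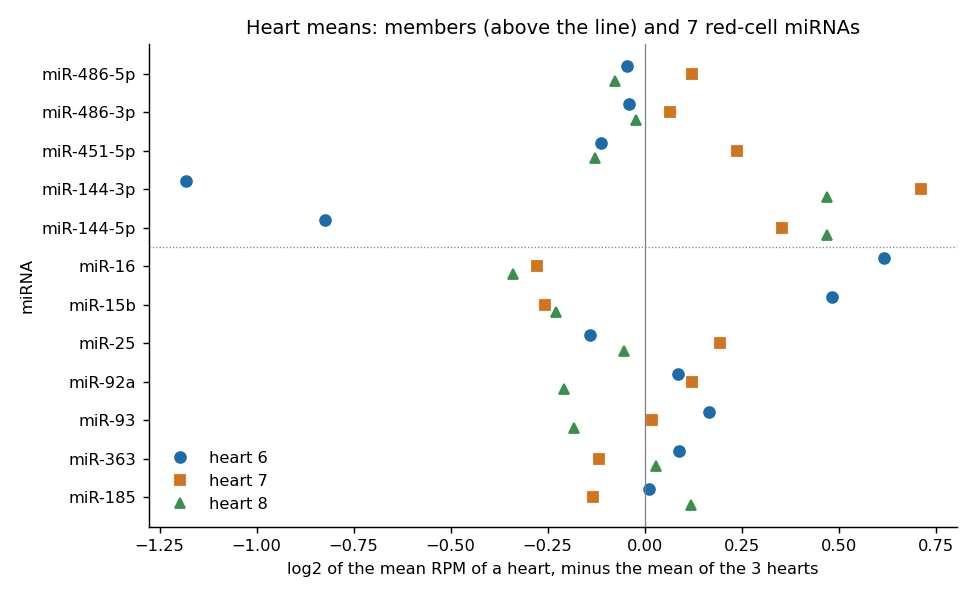
Mean level of each heart on the log2 scale, relative to the mean of the 3 hearts (x axis), for the member arms above the dotted line and the 7 listed red-cell miRNAs under it (y axis). Each point is the mean of 3 layers. miR-144-3p and miR-144-5p have heart 6 far to the left, miR-16 has it to the right, and the hearts lie close together for miR-486 and miR-451.

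Ratios between members were taken within each library, where sequencing depth cancels. Reads of miR-486-5p per read of miR-451-5p numbered 263, 217 and 201 in the epicardium, midmyocardium and endocardium of heart 6, 115, 140 and 447 in heart 7, and 431, 134 and 196 in heart 8. The ratio thus spanned 3.88-fold, against 2.46-fold for miR-486-5p and 2.55-fold for miR-451-5p alone. The SD of its log2 value over the 9 libraries was 0.70, beside 0.37 for miR-486-5p and 0.44 for miR-451-5p, and counting error would give 0.07. The ratio therefore varied more than either miRNA alone. For the arms of miR-486, the log2 ratio of miR-486-5p to miR-486-3p had an SD of 0.39, close to the 0.37 of miR-486-5p alone. The SD of miR-486-3p alone was 0.14, and counting error would give 0.08 for the ratio. Without heart 7 the SD of this ratio was 0.23.

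Between the clustered miRNAs, miR-451-5p gave 22.9, 25.4 and 40.1 reads per read of miR-144-3p in the layers of heart 6, but 14.5, 7.28 and 10.1 in heart 7 and 7.95, 8.01 and 11.1 in heart 8. All libraries of heart 6 were above all others. The SD of the log2 ratio was 0.87, beside 0.95 for miR-144-3p alone and 0.30 from counting, and without heart 6 it was 0.37. Between the 2 arms of miR-144 the ratio lay between 0.81 and 2.13 reads of the 3p arm per read of the 5p arm. Its SD was 0.42 on the log2 scale, and counting error alone would give 0.42.

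**Figure D3:**
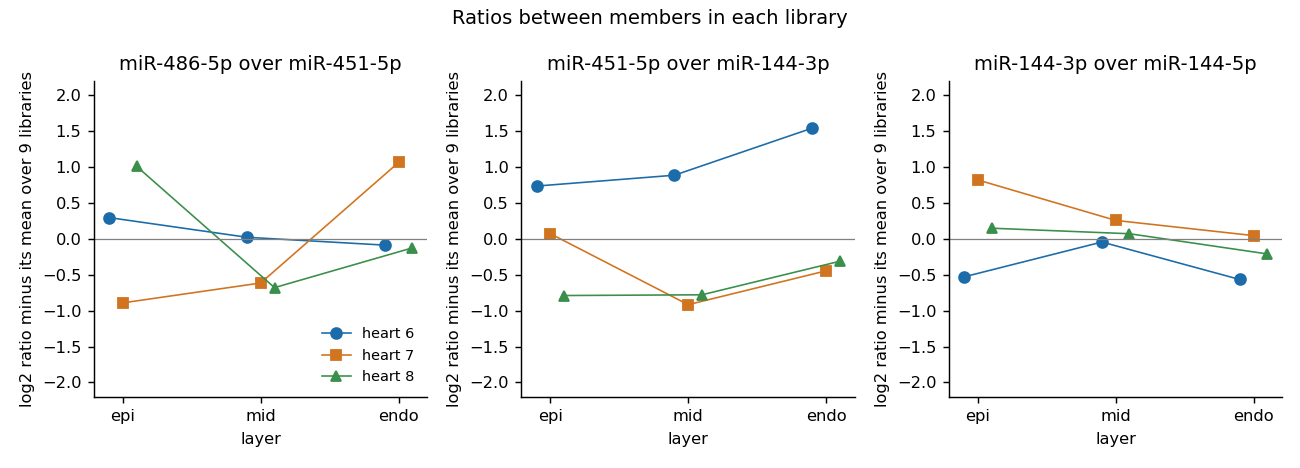
Log2 ratio between 2 members in each library, relative to its mean over the 9 libraries (y axis), by layer (x axis), joined within a heart. The left panel fans out in opposite directions in hearts 7 and 8, heart 6 stands above the others in the middle panel, and the arms of miR-144 stay within 1 unit of their mean.

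The direction of the layer steps was counted as well. Among the 9 steps, 3 pairs of layers in each of 3 hearts, the 3 miRNAs went the same way in 1, the step from epicardium to midmyocardium in heart 6. For miR-144-3p that step rests on 20 and 7 reads. miR-451-5p and miR-144-3p had the same sign in 5 of 9 steps, miR-486-5p and miR-451-5p in 4, and miR-486-5p and miR-144-3p in 2. In the step from midmyocardium to endocardium, miR-486-5p was higher and miR-144-3p lower in 3 of 3 hearts. The steps of a heart share libraries, so they were not tested.

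The likeness of other miRNAs was measured by the SD of the log2 ratio over the 9 libraries, among read groups with at least 10 reads in each. For miR-486-5p the 5 most constant ratios were those to miR-151* (SD 0.15), miR-676 (0.19), miR-181b (0.20), miR-30e* (0.21) and miR-3107 (0.21), the last a mouse entry for a copy of miR-486. For miR-451-5p they were miR-128 (0.16), miR-222 (0.20), miR-345 (0.23), miR-361* (0.25) and miR-201 (0.25). Of 201 groups compared, 148 kept a more constant ratio to miR-486-5p than miR-451-5p did. Of 202 groups, 194 kept a more constant ratio to miR-451-5p than miR-144-3p did.

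Nearest to miR-144-3p after its own partner arm, than which no group was closer, came miR-145* (SD 0.45), miR-30e (0.62), miR-125a (0.63), miR-674 (0.64) and miR-301a (0.66). miR-451-5p was closer to miR-144-3p than most groups, with 29 of 202 closer still. For miR-144-5p the nearest besides its partner arm were miR-30e (0.32), miR-301a (0.37), miR-30a (0.55), miR-872 (0.57) and miR-208 (0.58), and the partner arm, at 0.42, came after the first 2 of these. The depth of the libraries and the low counts of miR-144 enter all of these values, and the 9 libraries come from 3 hearts.

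The members differed in their sequence forms, or isomiRs. The 5 most abundant forms of miR-486-5p follow in order, with bases past the mature 3′ end in capitals:
form 1: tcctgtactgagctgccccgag
form 2: tcctgtactgagctgccccgagT
form 3: tcctgtactgagctgccccgagA
form 4: tcctgtactgagctgccccga
form 5: tcctgtactgagctgccccgagAA

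The exact mature sequence held 41.2% ± 0.96 of miR-486-5p reads (mean ± SD, n = 9), the form with an added T 21.6% ± 0.57, that with an added A 13.8% ± 0.74, the form 1 nt shorter 12.3% ± 1.07, and that with AA 1.36% ± 0.09. The deposited mismatch column counted the added T and the added A as 1 mismatch each, so that neither was the next base of the database entry. Other 5′ ends made up 1.25% ± 0.12, so the seed was nearly always that of the mature sequence. These shares varied little from library to library, while the level of miR-486-5p varied 2.46-fold.

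miR-451-5p also ended late, and most of its longer reads matched its own hairpin. Its 5 most abundant forms were:
form 1: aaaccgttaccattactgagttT
form 2: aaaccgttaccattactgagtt
form 3: aaaccgttaccattactgagt
form 4: aaaccgttaccattactgagttTAGT
form 5: aaaccgttaccattactgagttTAG

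The form of 23 nts held 42.8% ± 5.08 of reads (mean ± SD, n = 9), the mature form of 22 nts 19.1% ± 2.52, that of 21 nts 14.7% ± 2.19, that of 26 nts 11.1% ± 3.25 and that of 25 nts 3.01% ± 0.80. The mature sequence of the database was thus not the most abundant form. Of 3018 reads longer than the mature sequence, 2956 (97.9%) matched the Mir451a hairpin without mismatch, and none of those was longer than 26 nts, which ends in the loop printed in lower case above. The hairpin base after the mature sequence is U, so in form 1 a T added after cleavage cannot be told from the hairpin's own base. Other 5′ ends made up 0.79% ± 0.45.

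In miR-144 the exact mature sequence was the most abundant form of both arms. The exact mature sequence, tacagtatagatgatgtact, held 64.7% ± 10.8 of miR-144-3p reads (mean ± SD, n = 9), and the next form, tacagtatagatgatgta, 12.7% ± 9.15. For miR-144-5p the exact sequence, ggatatcatcatatactgtaagt, held 72.9% ± 6.47. Shorter 3′ ends made up 25.9% ± 8.78 of the 3p arm and 13.96% ± 6.45 of the 5p arm, and longer 3′ ends 1.07% ± 1.68 and 7.58% ± 4.76. Another form of the 3p arm, ctacagtatagatgatgtact, started 1 nt earlier and so shifted the seed, and held 7.19% ± 3.81. With as few as 7 and 6 reads in a library, single shares of miR-144 are imprecise.

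**Figure D4:**
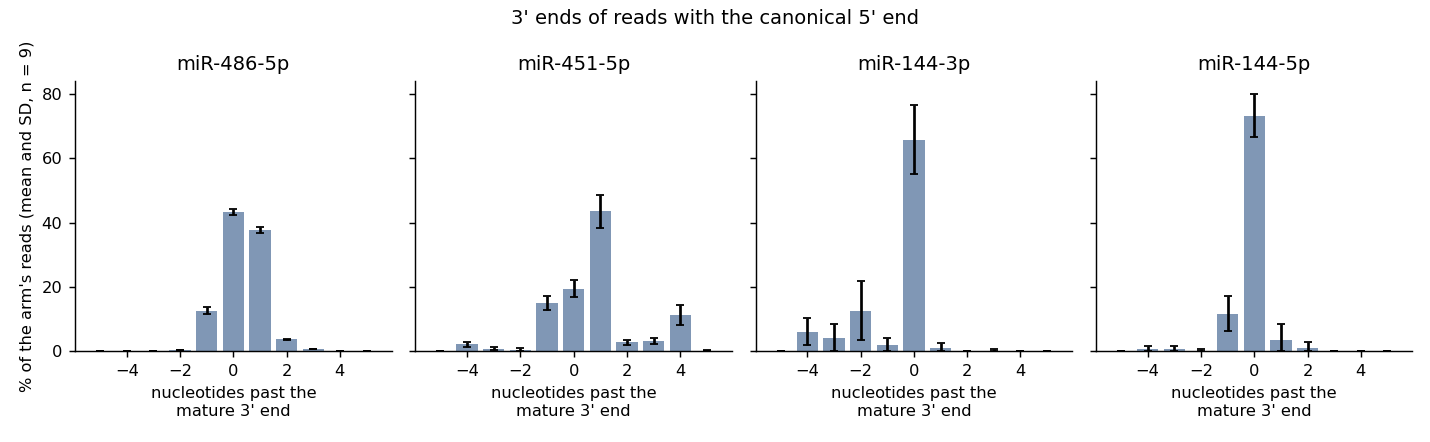
Share of an arm's reads (y axis, mean over 9 libraries, bars SD) whose 5′ end was canonical, by the number of nts past the mature 3′ end (x axis, negative for shorter reads). miR-486-5p is split between 0 and 1, miR-451-5p peaks at 1 with another peak at 4, and the miR-144 arms peak at 0.

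The mismatched longer forms set miR-486 apart from most abundant miRNAs. Of the 55 main arms with at least 1000 RPM on average, 3 had a larger share of reads in the class of longer sequences with mismatches than miR-486-5p, whose share was 41.8%, beside a median of 6.67%. For miR-451-5p the share was 1.01% and for miR-144-3p 0.92%, both lower than in 49 of those 55 arms. A single T after mature miR-451-5p matches its hairpin, where the next base is U, so it is not counted as a mismatch there. These shares are descriptions of reads and were not tested.

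Annotation by the authors allowed a limited number of mismatches and extra bases, so miR-486-5p reads with longer additions were looked for among the unannotated reads too. There, 75 sequences with 44878 reads held the first 16 nts of miR-486-5p, equal to 3.63% to 4.11% of the arm in each library. No deposited unannotated sequence held the first 16 nts of another member arm, but that set starts at 10 reads per sequence, summed over all libraries, so rarer forms of miR-451 and miR-144 could not be seen. The most abundant were tcctgtactgagctgccccgagTAA with 9124 reads, tcctgtactgagctgccccgagTAT with 8300 and tcctgtactgagctgccccgagAAA with 7767.

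Over both sets, 51.4% ± 0.92 (mean ± SD, n = 9) of the reads with the complete miR-486-5p sequence carried added bases. Reads with T alone held 26.7% ± 0.82, reads with A alone 18.8% ± 0.71, those with A and T mixed 4.98% ± 0.19, and those with a G or C 0.96% ± 0.10. A single added base was T in 25.4%, A in 16.3%, G in 0.23% and C in 0.13% of reads. Additions of 1 nt made up 42.0%, of 2 nts 4.19%, of 3 nts 4.03% and of 4 nts 0.88%. T alone held 60.5% of the additions of 1 nt, which cannot be mixtures, and mixtures of A and T held 63.0% at 3 nts and 72.2% at 5 nts. Among reads with 7 or 8 extra nts, 77.8% and 72.7% ended like the start of the 3′ sequencing adapter, and these were kept apart.

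**Figure D5:**
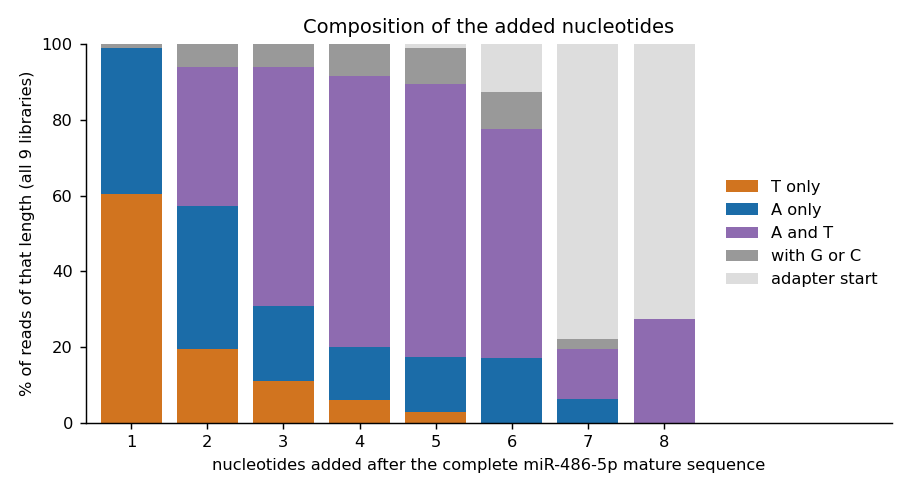
Make-up of the bases added after the complete miR-486-5p sequence (y axis, % of reads of that length, summed over 9 libraries) by their number (x axis). T alone leads at 1 nt, A and T mixed lead from 3 to 6 nts, and adapter starts lead at 7 and 8 nts.

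Each of 19 shares was compared by an exact permutation test, two-sided, with labels permuted within hearts or within layers, for which the smallest possible p is 0.0278, so that a single share out of 19 could not pass the adjustment. By this test 0 of 19 passed between layers and 0 of 19 between hearts, and 0 and 1 had an unadjusted p under 0.05. T-only additions were taken here as a share of all annotated miR-486-5p reads, unlike the shares of complete sequences over both sets given above. This share was 22.2% ± 0.50 in the epicardium, 22.4% ± 0.50 in the midmyocardium and 23.3% ± 0.39 in the endocardium (exact permutation p = 0.111, adjusted p = 0.704, n = 3). Of all miR-144 reads the 5p arm took 52.0% ± 5.04 in heart 6, 39.2% ± 6.50 in heart 7 and 45.3% ± 3.25 in heart 8 (exact permutation p = 0.0278, adjusted p = 0.528, n = 3). The 26 nt end of miR-451-5p, mismatches included, took a share of 7.94% ± 1.63 for heart 6, 13.0% ± 2.15 for heart 7 and 12.9% ± 3.13 for heart 8 (exact permutation p = 0.0833, adjusted p = 0.528, n = 3).

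Single sequences were compared between endocardium and epicardium in the same way as miRNAs. Of 562 sequences with a mean of at least 100 RPM in either layer, 37 were members, 34 from miR-486 and 3 from miR-451. By limma 0 of 562 passed after adjustment (0%), and 8 (1.42%) had an unadjusted p under 0.05, of which 1 was a member. Member log2 differences ran from -0.24 to 0.86, and 36 of 37 were above 0. The share above 0 among all 562 sequences is not given here. Most of the 37 were forms of miR-486-5p, which differed by 0.38 as an arm. Sequences of the same arm share its level and are not separate measurements of it. With heart as a block, 39 of 562 (6.94%) had an unadjusted p under 0.05 and 0 passed.

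miR-486-3p was cut from the opposite arm and made up 0.38% ± 0.10 of miR-486 reads (SD, n = 9). Its exact form held 33.5% ± 2.41 of the arm, and cggggcagctcagtacaggatG, with a G that the mismatch column counted as matching, held 20.3% ± 3.75. One sequence filed with this arm, ctcggggcagctcagtacagga, with 190 reads, was the exact reverse complement of mature miR-486-5p, so the strand it came from cannot be told from its bases.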

How the data were processed

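Small RNA of 9 libraries (3 layers of 3 hearts) was measured with the TruSeq Small RNA kit. The authors annotated reads in CLC Genomics Workbench v4.0 against miRBase 18, allowing mismatches and 3′ or 5′ additions, and deposited annotated sequences as RPM. Every deposited RPM value was a whole number of reads within 0.01 read, which gave 100% whole values, and depth was taken from these reads (283991 to 1428025). A grouped table was deposited on a normalized signal scale whose normalization is not given in the sources used here, and was used only as an alternative. Unannotated sequences were deposited as counts, for sequences with at least 10 reads over all libraries. Reads were grouped by entry name, with the * arm apart and rat entries apart from those of all other species together, and the members by arm. Groups came from the titles, and the titles do not say how libraries were batched.

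Levels were tested with limma 3.58.1 in R 4.3.3 on log2(RPM + 1) for miRNAs with at least 10 reads in 1 library, at an adjusted p of 0.05. A fold change on that scale understates low miRNAs. edgeR 4.0.16 and DESeq2 1.42.0 were run on the recovered reads. edgeR without a heart block called 0 miRNAs between layers and 8 between hearts. Shares were tested by exact permutation (scipy 1.17.1). Alternatives covered the pseudocount, scaling, filter, test, replicate block and each library or heart left out. The fits and tests were tested on simulated data. Intervals are Wilson 95% intervals and, like the floor of 3 reads, describe counting error alone, since amplified copies of a molecule cannot be told apart. Sequences named are the exact mature form and the 5 with the highest mean share per arm. Likeness names the 5 groups with the smallest ratio SD. Members and lists were chosen with earlier results of these data known. Libraries of a heart come from the same animal, which pairs them. Over 203 miRNAs their deviations from layer means correlated at -0.27 to 0.53 within hearts (mean 0.18 over 9 pairs) and at a mean of -0.09 between hearts. Taking deviations from layer means ties the latter mean to the former, so it is not separate evidence. Within hearts the values were 0.45 to 0.53 in heart 6, -0.27 to 0.17 in heart 7 and -0.02 to 0.17 in heart 8. P-values between hearts treat layers as replicates of 1 animal.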

Additional observations from a re-analysis of the deposited data

Results flagged for a closer look

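Among the unannotated sequences, which the reported comparisons of levels left out, 44878 reads held the first 16 nts of miR-486-5p, with at least 1492 in each library. Under the mouse mir-3107 entry alone, which the member rule leaves out, 806 reads were filed on 35 sequences. Both were flagged as signals outside the main measurement, above the limit that a count of 0 allows, and there were no control libraries.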

How the results depend on the processing

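Counts of called miRNAs between layers were 0 in every fit but 2, both for midmyocardium against epicardium, where DESeq2 and edgeR with a replicate block (the latter chosen after seeing the data) called 1. With the heart as replicate block in limma, 0 were called in each layer comparison, and no member changed its call. Between hearts the count was 0 in the reported fit and 7 with a pseudocount of 10, 8 with edgeR, 15 with DESeq2, 1 with no filter, 2 with at least 10 reads in every library (where miR-144-3p was not tested) and 1 in the deposited grouped table. It ran from 0 to 4 with single libraries left out, at 1 without the epicardium of heart 8 and 4 without the midmyocardium of heart 8. The causes were not tested. The log2 difference of miR-144-3p between endocardium and epicardium, -0.02 as reported, was 0.046 with totals without mir-486, 0.0059 with edgeR, 0.062 with DESeq2 and 0.034 with Baggerley's test. With single libraries left out it ran from -0.47 to 0.52, that of miR-451-5p from -0.057 to 0.62, that of miR-144-5p from -0.0080 to 0.75 and that of miR-486-5p from 0.17 to 0.52. For midmyocardium minus epicardium, miR-144-3p ran from 0.19 to 1.32, miR-144-5p from 0.32 to 1.30, miR-451-5p from 0.093 to 0.77 and miR-486-5p from -0.31 to -0.018. For endocardium minus midmyocardium, miR-144-5p ran from -0.94 to 0.050, miR-144-3p from -1.34 to -0.12, miR-451-5p from -0.26 to 0.033 and miR-486-5p from 0.35 to 0.67. The SD of the log2 ratio of miR-451-5p to miR-144-3p ran from 0.37 (without heart 6) to 0.98 with single hearts left out, and that of miR-486-5p to miR-486-3p from 0.23 (without heart 7) to 0.48. Adding the unannotated reads to miR-486-5p, a choice made after seeing the data, changed no direction. With 2 hearts the exact tests of shares cannot go below 0.167 for layers and 0.25 for hearts. Depth limits miR-144, with as few as 6 reads in a library.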

Other observations

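Forms of miR-486-5p with G in place of the A at position 21, counted from the 5′ end, were higher in heart 7, and were picked out after their values were seen. The form of 21 nts, tcctgtactgagctgccccgG (A21G, which can also be read as the loss of the A), made up 0.169% to 0.311% of miR-486-5p in heart 7, 0.0595% to 0.0972% in heart 6 and 0.0544% to 0.120% in heart 8. The form of 22 nts, tcctgtactgagctgccccgGG, made up 0.121% to 0.180% in heart 7, 0.0486% to 0.0731% in heart 6 and 0.0471% to 0.0691% in heart 8. They held 1405 and 840 reads in heart 7. For both forms the libraries of heart 7 lay above all others. The annotated reads of miR-486-5p held 1229 sequences. The share of these in which any heart lay wholly above the others is not given here, so how unusual the pattern is cannot be told. The form of 21 nts matches the start of the form of 22 nts, so they are not counted as separate observations.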
